A study of Homo sapiens with 12 samples.

Results

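The genes described here are 9 genes of the YAP and TEAD pathway: the coactivators YAP1 and WWTR1 (TAZ), the transcription factor TEAD1, the regulators AMOTL2 and LATS2, the secreted CCN proteins CYR61 (now CCN1) and CTGF (now CCN2), the nuclear cofactor ANKRD1 and the receptor kinase AXL. They were picked by gene name from the 24331 features of the deposited expression table, with earlier results of these data known. All 9 were listed, and all 9 were among the 11256 features with a mean of at least 1 FPKM (fragments counted per length of transcript and per size of library), which were tested.

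Expression was measured by RNA-seq in MDA-MB-231, a triple-negative human breast cancer cell line. Wild-type cells (WT) were compared with cells in which CRISPR/Cas9 removed part of the core-regulatory element (CRE) of the ETS1 promoter (ΔCRE, labelled KO). Both lines were taken without stimulation (0 h) and after 6 and 24 h of PMA/Ionomycin, a phorbol ester that activates protein kinase C together with a calcium ionophore. Each of the 6 groups had 2 replicates, which gave 12 libraries. The source of the replicates is stated only as biological, so the p-values measure the spread between these libraries. How many clones the ΔCRE libraries came from is not given in the sources used here, so the deletion and a clone cannot be told apart. In bulk RNA, fewer cells of a kind and less RNA per cell cannot be told apart either.

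YAP1 and WWTR1 are coactivators without a DNA-binding domain of their own, and they reach their target genes through TEAD factors. The Hippo kinases, LATS2 among them, phosphorylate both coactivators and keep them in the cytoplasm, and angiomotin-like proteins such as AMOTL2 hold them at junctions and the actin skeleton. CYR61, CTGF, ANKRD1, AMOTL2, LATS2 and AXL are widely used as target genes of the pathway, so AMOTL2 and LATS2 are both targets and inhibitors. MDA-MB-231 cells carry a mutated NF2, an upstream activator of the Hippo kinases, and are known for active YAP and TAZ.

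ETS1, whose promoter element was removed, stood at 24.0 and 23.7 FPKM in WT at 0 h, 139 and 145 at 6 h, and 36.2 and 39.7 at 24 h. The ΔCRE libraries gave 16.5 at 0 h in replicate 2, 62.8 and 62.2 at 6 h, and 29.3 and 30.7 at 24 h, below WT at each time. ΔCRE 0 h replicate 1 gave 5.08 and stood apart from the other 11 libraries. Its FPKM values summed to 1423335 against 566255 to 651080 in the others, and it correlated with its replicate at r = 0.867 against 0.978 to 0.984 in the other groups (Pearson, over 11256 features on the log2 scale). It held all 10 markers of gut epithelium above 1 FPKM, with a summed level of 11800 FPKM. In the other 11 libraries the sum was 2.19 to 3.55 FPKM, EPCAM alone passed 1 FPKM, and 5 to 8 of the 10 markers were at 0. This library is therefore shown apart and was left out of the fit, which leaves 1 ΔCRE library at 0 h and no test of ΔCRE at that time. In the 11 libraries VIM, a mesenchymal marker expected to be expressed in this line, was at 1540 to 2540 FPKM. The oestrogen receptor ESR1, expected to be low, did not pass 0.00894 FPKM.

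Promoter sequence is shown because the target genes have TEAD binding as their common step. The RefSeq table (GRCh38.p14) held 10 start sites for 7 of the 9 members, and CYR61 and TEAD1 had no entry. The 250 bases before each start were searched on both strands for GGAATG (the core bound by TEAD factors), TGANTCA (AP-1) and CCGGAAG (ETS). A TEAD match was present before 5 of the 10 starts, 1 for each of 5 members, and 11.9% of all 35116 promoters in the table hold one. The AP-1 letters TGANTCA, with N any base, matched only before ANKRD1, as TGATTCA (6.57% of all promoters hold a match). None of the 10 windows held the ETS letters CCGGAAG (8.52% of all promoters do), and other ETS letters were not searched. The sequences follow 5′ to 3′ on the strand of the gene, with positions in hg19 found by exact match and capitals marking the matches. All of them are TEAD letters except the last run of ANKRD1 before its feature, which is the match to TGANTCA. For CTGF and ANKRD1 the stretch up to the edge of the deposited feature is given, and 30 bases are given around every other match.
CTGF, chr6:132272519-132272762, minus strand: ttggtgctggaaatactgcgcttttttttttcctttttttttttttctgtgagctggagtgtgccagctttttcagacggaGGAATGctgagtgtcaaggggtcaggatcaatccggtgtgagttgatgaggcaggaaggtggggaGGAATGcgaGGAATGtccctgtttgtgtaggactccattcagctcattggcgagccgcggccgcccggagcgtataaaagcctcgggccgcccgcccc
ANKRD1, chr10:92681033-92681094, minus strand: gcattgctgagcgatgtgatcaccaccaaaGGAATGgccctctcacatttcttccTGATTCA
ANKRD1, chr10:92680955-92680984, minus strand: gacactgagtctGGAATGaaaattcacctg
AMOTL2, chr3:134093341-134093370, minus strand: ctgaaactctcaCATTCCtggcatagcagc
YAP1, chr11:101981004-101981033, plus strand: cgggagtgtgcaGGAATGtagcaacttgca
AXL, chr19:41732436-41732465, plus strand: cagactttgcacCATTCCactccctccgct
CTGF had 3 TEAD matches, beginning at positions -169, -104 and -95 from the start, and ANKRD1 had 2, beginning at -220 and -128. AMOTL2, YAP1 and AXL had 1 match each. In AMOTL2 and AXL it lies before only 1 of the 2 listed starts, and it reads on the opposite strand. The second ANKRD1 window and those of AMOTL2 and AXL lie inside the deposited features, where GENCODE places an exon at the AMOTL2 window and none at those of ANKRD1 and AXL. The YAP1 window overlaps an exon of another GENCODE gene, ENSG00000277459, and the long CTGF and ANKRD1 stretches overlap no exon. A match describes the letters in these windows and no binding was measured.

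In unstimulated WT cells the members covered a wide range of levels. CYR61 was the highest at 587 ± 6.81 FPKM (SD, n = 2, as for the other means), followed by ANKRD1 at 205 ± 11.7, CTGF at 137 ± 6.71 and AXL at 115 ± 0.0863. AMOTL2 came next at 40.6 ± 0.931 FPKM, then TEAD1 at 28.2 ± 3.0, WWTR1 at 23.8 ± 1.98, YAP1 at 20.6 ± 2.81 and LATS2 at 8.24 ± 0.391. The replicates of neighbours in this order did not overlap, except those of WWTR1 and YAP1. On this per-length scale the targets CYR61, ANKRD1, CTGF, AXL and AMOTL2 stood above both coactivators and TEAD1, and the target LATS2 stood below them. By 24 h in ΔCRE cells the order had changed at several places: CTGF (89.5 ± 0.244) stood above ANKRD1 (65.0 ± 1.02), and AMOTL2 (10.8 and 11.3) stood below TEAD1 (15.0 and 18.1). Part of this shift was present in WT cells at 24 h. There WWTR1 (28.6) stood above AMOTL2 (17.1 and 16.2), and AMOTL2 overlapped TEAD1 (14.9 and 16.7). ANKRD1 (97.7) still stood above CTGF (89.4) in those cells.

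**Figure D1:**
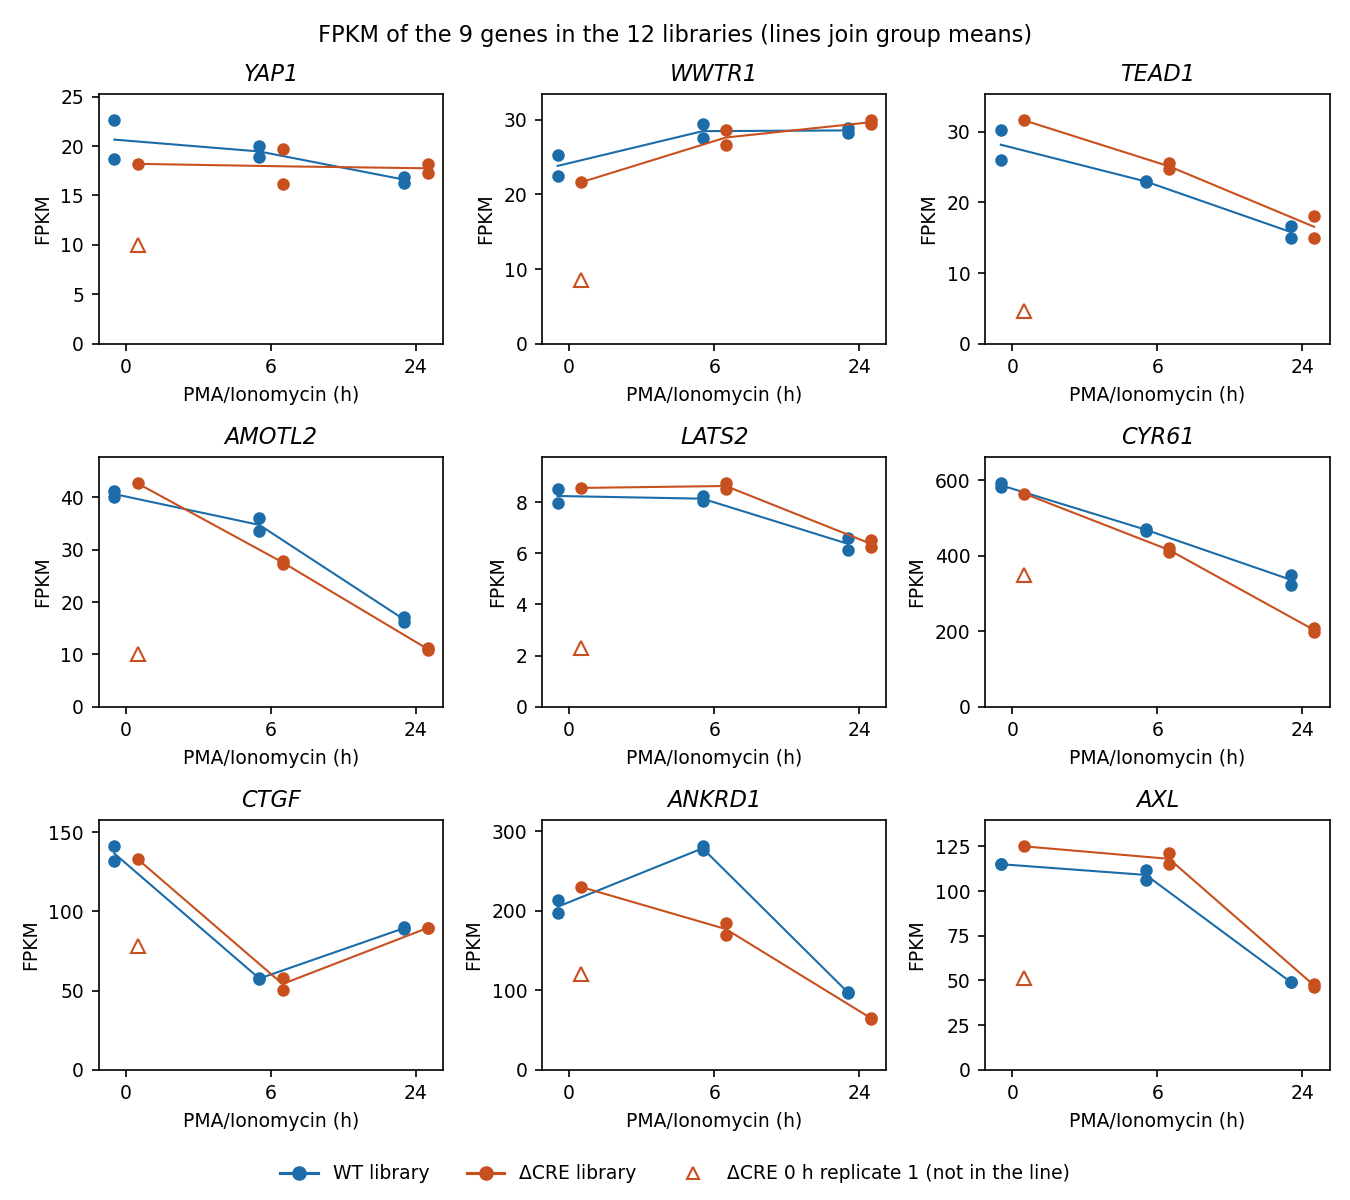
FPKM (linear axes from 0) of each gene in each library against hours of PMA/Ionomycin (0, 6 and 24 h drawn at even spacing), with circles for WT and ΔCRE libraries, lines joining group means, and a triangle for ΔCRE 0 h replicate 1, which is in no line. ANKRD1 peaks at 6 h in WT (276 and 281 FPKM), and CTGF dips at 6 h in both lines. The ΔCRE line of ANKRD1 falls from 0 to 6 h, but it starts at 1 library (230 FPKM) and was not tested. The triangle of ANKRD1 (120) lies below both ΔCRE libraries at 6 h (170 and 184). In all 9 panels the triangle lies below both WT libraries at 0 h, and the share of all features that do so is not given here.

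The course in WT cells asks how the pathway genes differed after 6 and 24 h of PMA/Ionomycin. No unstimulated cells were taken at 6 or 24 h, so the stimulus and the time in culture cannot be told apart. At 6 h, 2 of the 9 members were higher than at 0 h and 3 were lower at an adjusted p under 0.05, against 23.3% of all features higher and 21.1% lower. At 24 h, 8 of the 9 were lower than at 0 h and 1 was higher, against 28.2% and 26.5% of all features. The median log2 fold change of the 9 was -0.08 at 6 h and -0.79 at 24 h, beside -0.001 and -0.02 over all features. From 6 to 24 h, 6 members were lower and 1 was higher, against 26.3% and 20.5% of all features. With ΔCRE 0 h replicate 1 in the fit, whose estimate of the spread all groups share, the members called in these 3 comparisons were 1, 2 and 1, and all features called were 857, 1221 and 582, where 4993, 6151 and 5267 were called without that library. All log2 fold changes are on the log2(FPKM + 1) scale, and adjusted p-values are from limma with the Benjamini-Hochberg method over all features.

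Among the coactivators, WWTR1 was read at 22.4 and 25.2 FPKM at 0 h, 29.4 and 27.5 at 6 h, and 28.2 and 28.9 at 24 h. Both stimulated groups lay above the 0 h libraries without overlap. WWTR1 rose by 0.25 ± 0.07 (SE) at 6 h (limma, adjusted p = 0.019) and by 0.26 ± 0.07 at 24 h (adjusted p = 0.014). The call was lost without WT 0 h replicate 1 at both times (0.17 in each, adjusted p = 0.098 and 0.078), without WT 6 h replicate 1 (adjusted p = 0.12) and without WT 24 h replicate 2 (adjusted p = 0.067). It was also lost at 6 h when each library was rescaled to the same total (log2 fold change 0.13, limma adjusted p = 0.27), after quantile normalization (0.15, adjusted p = 0.11) and in a separate fit of the compared libraries (0.25, adjusted p = 0.054). YAP1, the paralog of WWTR1, was read at 18.7 and 22.6 FPKM at 0 h, 18.9 and 20.0 at 6 h, and 16.3 and 16.9 at 24 h. Its 6 h libraries overlapped those at 0 h, and its 24 h libraries lay below. YAP1 fell by 0.29 ± 0.11 at 24 h (limma, adjusted p = 0.046), and this call was lost when any 1 of 7 of the 11 libraries was left out. Leaving out WT 0 h replicate 2 gave the smallest change (-0.16, limma adjusted p = 0.28).

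TEAD1, the DNA-binding partner, was read at 26.0 and 30.3 FPKM at 0 h, 22.9 and 23.0 at 6 h, and 14.9 and 16.7 at 24 h in WT cells. The 3 groups did not overlap and lay in falling order. The log2 difference at 6 h was -0.28 ± 0.10 and just missed the threshold (limma, adjusted p = 0.051), and without WT 0 h replicate 2 it was -0.18 (adjusted p = 0.27). Its adjusted p ran from 0.011 to 0.94 over the alternatives (limma), with 0.045 at a minimum mean of 5 FPKM. At 24 h TEAD1 fell by 0.79 ± 0.10 (limma, adjusted p = 0.00028). At 24 h its mean was 56.1% of that at 0 h.

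The inhibitory regulators differed in size of change. AMOTL2, which retains YAP and TAZ outside the nucleus, was read at 41.3 and 40.0 FPKM at 0 h, 36.0 and 33.5 at 6 h, and 17.1 and 16.2 at 24 h. The fall was 0.22 ± 0.058 at 6 h (limma, adjusted p = 0.016) and 1.24 ± 0.058 at 24 h (adjusted p = 1.2e-06), to 41.0% of the 0 h mean. The 6 h call was lost without WT 0 h replicate 1 (adjusted p = 0.064) or WT 6 h replicate 2 (adjusted p = 0.11). LATS2, a kinase that inactivates YAP and TAZ, was read at 7.96 and 8.51 FPKM at 0 h, 8.23 and 8.03 at 6 h, and 6.13 and 6.61 at 24 h. Its 6 h libraries lay within the range at 0 h, and it fell by 0.33 ± 0.064 at 24 h (limma, adjusted p = 0.0028).

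The CCN genes, whose products are matricellular proteins that bind integrins, took different courses. CYR61 was read at 592 and 582 FPKM at 0 h, 471 and 467 at 6 h, and 349 and 324 at 24 h. It fell stepwise with no overlap between times, by 0.32 ± 0.056 at 6 h (limma, adjusted p = 0.0019) and by 0.80 ± 0.056 at 24 h (adjusted p = 1e-05). CTGF was read at 132 and 141 FPKM at 0 h, 57.9 and 57.3 at 6 h, and 89.9 and 89.0 at 24 h. Its lowest point was thus at 6 h, at 42.2% of the 0 h mean, with a fall of 1.23 ± 0.069 (limma, adjusted p = 3.6e-06). From 6 to 24 h CTGF then rose by 0.63 ± 0.069 (adjusted p = 0.0002), the 1 member called higher in this interval, and at 24 h it remained at 65.5% of the 0 h level.

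ANKRD1, an ankyrin-repeat cofactor found in the nucleus and at the sarcomere of muscle, went the other way at 6 h. It was read at 197 and 213 FPKM at 0 h, 276 and 281 at 6 h, and 98.1 and 97.2 at 24 h in WT cells. It rose by 0.44 ± 0.058 at 6 h (limma, adjusted p = 0.00046) and then fell by 1.5 ± 0.058 from 6 to 24 h (adjusted p = 9.5e-07), to 47.7% of the 0 h mean. AXL, a receptor tyrosine kinase whose ligand is GAS6, was read at 115 and 115 FPKM at 0 h, 112 and 106 at 6 h, and 49.1 and 48.9 at 24 h. Its difference at 6 h was -0.08 ± 0.05 (limma, adjusted p = 0.24), and at 24 h AXL fell by 1.22 ± 0.05 (adjusted p = 6.1e-07), to 42.5% of the 0 h mean.

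The scale of the values bears on small changes. When every library was rescaled to the same total (TPM), the median log2 fold change over all features at 6 h against 0 h in WT cells was -0.118, beside -0.001 on the deposited scale, and from 6 to 24 h it was 0.079, beside -0.036. Changes of that size depend on the scale. On this scale the differences of TEAD1 (-0.41, limma adjusted p = 0.033) and AXL (-0.20, adjusted p = 0.018) at 6 h passed the threshold, and LATS2 no longer passed from 6 to 24 h (adjusted p = 0.078). The share of called features that were higher was 52.5% on the deposited scale and 34.8% on the TPM scale at 6 h against 0 h. For 24 h against 6 h these shares were 43.7% and 65.4% in WT cells and 44.6% and 62.0% in ΔCRE cells, and between the lines at 24 h they were 37.2% and 24.7%.

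**Figure D2:**
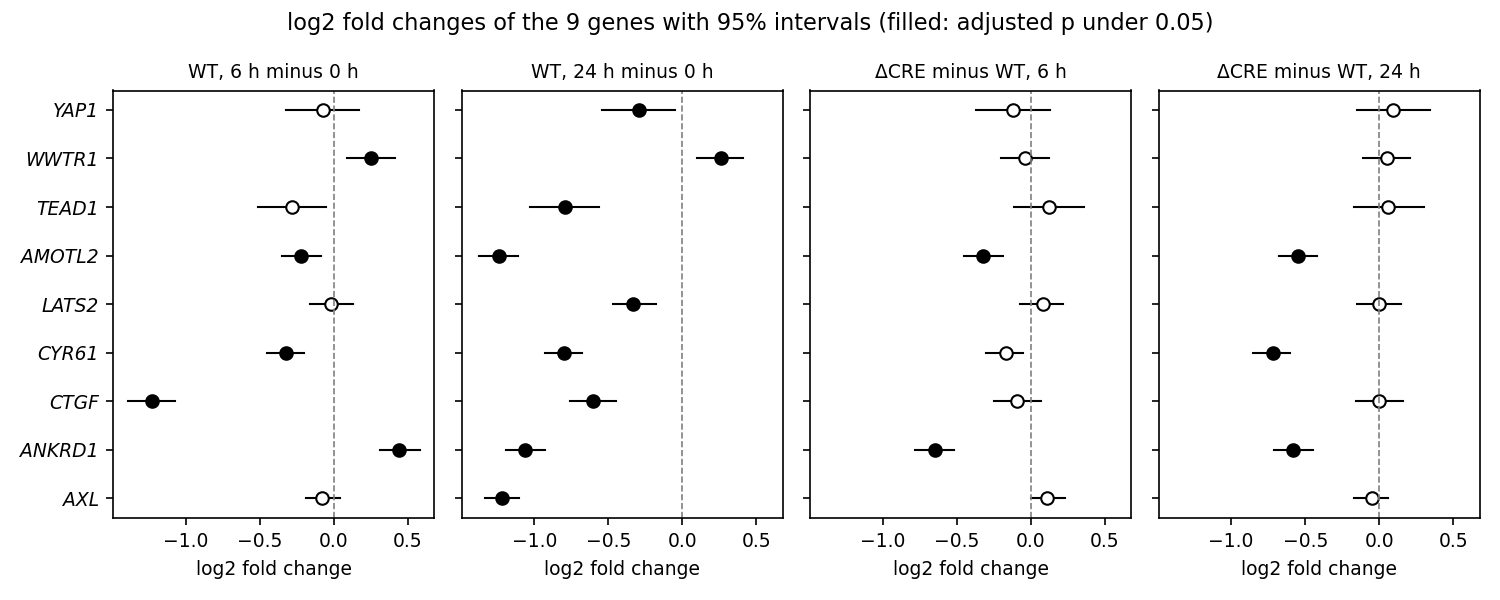
log2 fold changes (x axis, log2(FPKM + 1) scale) of the 9 genes with 95% intervals from limma in 4 comparisons, filled where the adjusted p is under 0.05. In WT cells at 24 h 8 genes lie left of 0 and WWTR1 lies right, whereas between ΔCRE and WT cells at 24 h only CYR61, ANKRD1 and AMOTL2 are filled, at -0.72, -0.58 and -0.55.

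The comparison of ΔCRE with WT cells at the same time asks which members differed where ETS1 was lower. At 6 h, 2 of the 9 members were lower in ΔCRE cells and 0 were higher, against 6.22% and 3.62% of all features. At 24 h, 3 were lower and 0 were higher, against 3.97% and 2.35% of all features. The members' median log2 difference was -0.09 at 6 h and 0.00 at 24 h, beside 0.013 and 0.012 over all features. With ΔCRE 0 h replicate 1 in the fit, 0 of the 9 were called at 6 h or at 24 h and 20 and 17 of all features were called. At an unadjusted p under 0.05 that fit (limma) held 1 of the 9 at each time.

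ANKRD1 differed at both times. At 6 h it was at 170 and 184 FPKM in ΔCRE cells against 276 and 281 in WT cells, and at 24 h at 65.7 and 64.3 against 98.1 and 97.2. No ΔCRE library reached a WT library of its time. The log2 difference was -0.65 ± 0.058 at 6 h (limma, adjusted p = 0.00049) and -0.58 ± 0.058 at 24 h (adjusted p = 0.0014), which put the ΔCRE means at 63.6% and 66.6% of the WT means. AMOTL2 was at 27.9 and 27.3 FPKM in ΔCRE cells at 6 h and at 10.8 and 11.3 at 24 h, below the WT libraries of each time (36.0 and 33.5, then 17.1 and 16.2). The log2 difference was -0.32 ± 0.058 at 6 h (limma, adjusted p = 0.012) and -0.55 ± 0.058 at 24 h (adjusted p = 0.0016). The call at 6 h was lost without WT 6 h replicate 1 (adjusted p = 0.099) or ΔCRE 6 h replicate 2 (adjusted p = 0.074).

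CYR61 differed at 24 h, with 210 and 197 FPKM in ΔCRE cells against 349 and 324 in WT cells. The log2 difference was -0.72 ± 0.056 (limma, adjusted p = 0.00031), and the ΔCRE mean was 60.4% of the WT mean. At 6 h the ΔCRE libraries, at 411 and 420 FPKM, also lay below those of WT (471 and 467), with a log2 difference of -0.17 ± 0.056 that missed the threshold (limma, adjusted p = 0.095, 95% interval -0.30 to -0.05). After quantile normalization that difference was -0.28 (limma, adjusted p = 0.012).

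The other CCN gene did not pass at either time. CTGF was at 50.3 and 58.0 FPKM in ΔCRE cells at 6 h and at 89.7 and 89.3 at 24 h, and both groups overlapped those of WT. Its log2 difference was -0.09 at 6 h, with a 95% interval of -0.25 to 0.07, and 0.00 at 24 h, with an interval of -0.16 to 0.16 (limma). AXL was at 121 and 115 FPKM in ΔCRE cells at 6 h and at 46.6 and 47.8 at 24 h, and its log2 differences were 0.11 (95% interval -0.00 to 0.23, limma, adjusted p = 0.22) and -0.05 (-0.17 to 0.06, adjusted p = 0.61).

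The coactivators, TEAD1 and LATS2 passed at neither time. YAP1 was at 16.2 and 19.7 FPKM in ΔCRE cells at 6 h and at 17.3 and 18.2 at 24 h, with a 95% interval of the log2 difference of -0.37 to 0.13 at 6 h and -0.15 to 0.34 at 24 h. WWTR1 was at 26.6 and 28.6 FPKM, then at 29.4 and 29.9, with intervals of -0.20 to 0.12 and -0.11 to 0.21. Both genes overlapped WT at 6 h and lay just above it at 24 h. TEAD1 was at 24.7 and 25.5 FPKM, then at 15.0 and 18.1, with intervals of -0.11 to 0.36 and -0.17 to 0.30. LATS2 was at 8.52 and 8.73 FPKM, then at 6.24 and 6.50, with intervals of -0.07 to 0.22 and -0.15 to 0.15. At 6 h both TEAD1 and LATS2 lay above WT without overlap, and at 24 h they overlapped it.

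Within ΔCRE cells, 6 members were lower at 24 h than at 6 h and 1 was higher, against 27.5% and 22.1% of all features. The falls were 1.43 ± 0.058 for ANKRD1, 1.30 ± 0.05 for AXL, 1.25 ± 0.058 for AMOTL2 and 1.03 ± 0.056 for CYR61 (limma, adjusted p = 1e-06, 8.5e-07, 2e-06 and 4.9e-06), with smaller falls of TEAD1 (0.58) and LATS2 (0.39). CTGF rose by 0.72 ± 0.069 (limma, adjusted p = 8.7e-05), as it had in WT cells. The test of whether the change from 6 to 24 h differed between the lines called none of the 9 members (0 of 9, limma), where 0.16% of all features were called. At an unadjusted p under 0.05 there were 3 members, and 6.98% of all features. CYR61 fell by 1.03 in ΔCRE cells and by 0.48 in WT cells, a difference of -0.55 ± 0.079 that lay at the threshold (limma, adjusted p = 0.051). With a pseudocount of 0.1, a minimum mean of 5 FPKM or the TPM scale, CYR61 passed (limma, adjusted p = 0.049, 0.043 and 0.038), and it passed also without ΔCRE 0 h replicate 2 (adjusted p = 0.048). AMOTL2 (-0.23 ± 0.082, limma adjusted p = 0.63) and AXL (-0.16 ± 0.071, adjusted p = 0.71) were the other members under an unadjusted p of 0.05.

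**Figure D3:**
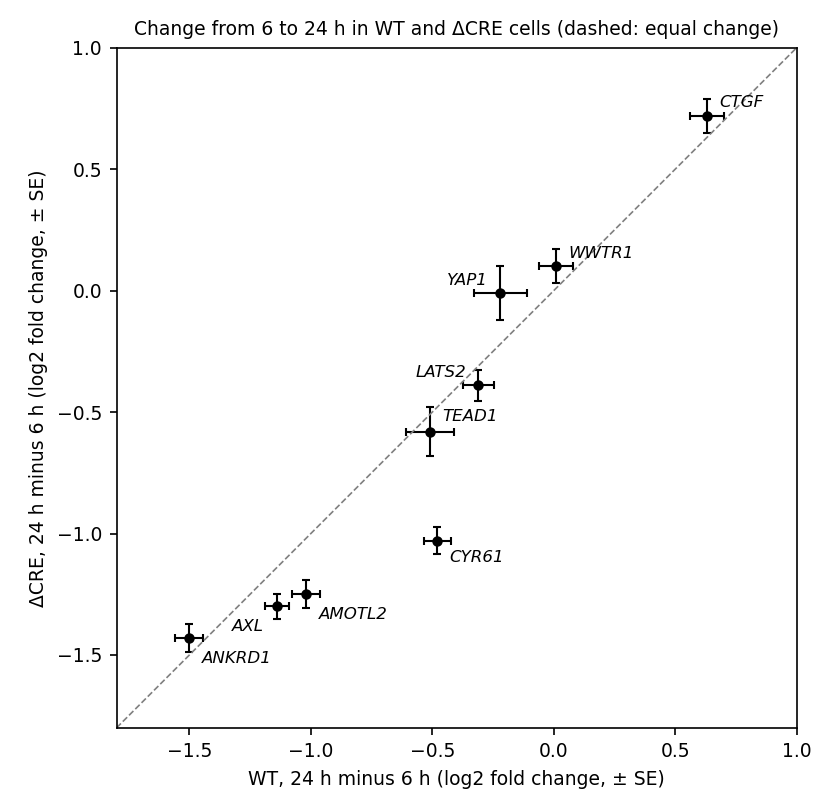
log2 fold change from 6 to 24 h in WT (x axis) and ΔCRE cells (y axis) for each gene, with bars of 1 SE from limma and a dashed line where both changes would be equal. CYR61 lies farthest below the line, at -0.48 and -1.03, and CTGF is the 1 gene called higher in both lines.

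At 0 h the lines could be compared only through single ΔCRE libraries, with no test. ΔCRE 0 h replicate 2 gave 565 FPKM for CYR61, 133 for CTGF, 230 for ANKRD1, 42.7 for AMOTL2 and 125 for AXL. It gave 18.2 FPKM for YAP1, 21.6 for WWTR1, 31.6 for TEAD1 and 8.55 for LATS2. Its log2 difference from the WT mean ran from -0.17 (YAP1) to 0.17 (ANKRD1). ANKRD1 and AMOTL2, which were lower in ΔCRE cells after stimulation, were thus above both WT libraries at 0 h, and CYR61 was below both, at a log2 difference of -0.06 from their mean. Against this library, the ΔCRE mean of ANKRD1 at 6 h was lower (log2 difference -0.37), where WT cells had risen by 0.44. ΔCRE 0 h replicate 1 gave 350 FPKM for CYR61, 78.4 for CTGF, 120 for ANKRD1, 10.04 for AMOTL2 and 51.1 for AXL. It gave 8.51 FPKM for WWTR1, 4.61 for TEAD1 and 2.31 for LATS2, and YAP1 was at 54.9% of its level in replicate 2. All 9 lay below both WT libraries, by a log2 difference of -0.74 for CYR61 to -2.37 for TEAD1. The share of all features that lay below both in this library is not given here, so this count is not read as a result about the pathway. This is the library with 11800 FPKM of gut epithelium markers and the raised FPKM total given above, and the part of these in its low values was not tested.

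The rest of the pathway was read through lists of Hippo kinases and upstream regulators (23 of 26 genes tested), coactivators with TEAD and VGLL factors (7 of 10), a widely used signature of YAP and TAZ targets (22 of 22), the CCN family (3 of 6) and AXL with its family and ligands (5 of 5). The lists include the members. At 24 h against 0 h in WT cells, 16 of the 22 signature genes fell and 1 rose, against 28.2% of all features lower and 26.5% higher. The median log2 fold change of the list was -0.68, beside -0.02 over all features. The largest falls were of TGFB2, a growth factor (-2.10 ± 0.099, limma adjusted p = 1.2e-06), F3, the initiator of coagulation (-1.65 ± 0.081, adjusted p = 1.5e-06), and FJX1 (-1.30 ± 0.08, adjusted p = 5.2e-06). At 6 h the same list split, with 6 genes up and 10 down, against 23.3% and 21.1% of all features. GADD45A, a stress and growth-arrest gene, rose by 1.24 ± 0.10 and the kinase NUAK2 by 1.17 ± 0.081 (limma, adjusted p = 3.1e-05 and 1.2e-05), beside the fall of CTGF. From 6 to 24 h, 17 of the 22 fell in WT cells and 17 fell in ΔCRE cells, where 26.3% and 27.5% of all features were lower.

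Of the 7 tested coactivators, TEAD and VGLL factors, 3 were higher (VGLL4, TEAD3 and WWTR1) and 3 lower (TEAD1, YAP1 and TEAD4) at 24 h than at 0 h in WT cells, against 26.5% and 28.2% of all features. TEAD4, named after its value was seen to complete the count, fell by 0.23 ± 0.08 (limma, adjusted p = 0.035). VGLL4, which competes with YAP for TEAD, was at 12.1 and 11.4 FPKM at 0 h, 35.7 and 32.1 at 6 h, and 31.2 and 30.3 at 24 h in WT cells. It rose by 1.45 ± 0.076 at 6 h and by 1.32 ± 0.076 at 24 h (limma, adjusted p = 2.2e-06 and 3.7e-06). TEAD3 rose by 0.55 ± 0.078 and 0.81 ± 0.078 (adjusted p = 0.00071 and 5.9e-05). TEAD2 was lower at 6 h (-0.26 ± 0.071, adjusted p = 0.016) but not called at 24 h. None of the 7 tested genes of this list was called between ΔCRE and WT cells at 6 or 24 h (0 of 7, limma). Over all features 9.83% and 6.33% were called in either direction, so 0 of 7 is near what all features give. At an unadjusted p under 0.05 there were 2 of 7 at 6 h and 0 at 24 h, against 24.0% and 21.2% of all features. The log2 differences spanned -0.27 to 0.18 at 6 h and -0.09 to 0.09 at 24 h.

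Among the Hippo kinases and regulators, 12 of 23 were lower and 6 higher at 24 h than at 0 h in WT cells, against 28.2% and 26.5% of all features, so the share that was higher is near that of all features. AJUBA, a LIM protein that binds LATS kinases, fell by 1.32 ± 0.059 and the protocadherin FAT1 by 1.21 ± 0.092, while MAP4K4, a kinase that can phosphorylate LATS, rose by 1.06 ± 0.056 (limma, adjusted p = 9.6e-07, 1.7e-05 and 2.2e-06). The scaffold WWC1 (KIBRA) rose at 6 h by 1.38 ± 0.084 (adjusted p = 5.7e-06). Of the CCN family, NOV (CCN3) was the only tested gene beside the 2 members, and it fell by 0.93 ± 0.13 at 24 h (limma, adjusted p = 0.00053). GAS6, the ligand of AXL, fell by 0.42 ± 0.084 at 24 h (adjusted p = 0.0031), while the related receptor MERTK rose by 0.37 ± 0.10 (adjusted p = 0.015).

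Between the lines the signature genes went both ways. At 6 h, 3 of 22 were higher in ΔCRE cells and 4 lower, against 3.62% and 6.22% of all features. F3 was at 187 and 205 FPKM against 103 and 101 in WT cells, a log2 difference of 0.93 ± 0.081 (limma, adjusted p = 0.0004). GADD45A (0.73 ± 0.10, adjusted p = 0.0039) and TGFB2 (0.60 ± 0.099, adjusted p = 0.0079) were the other genes higher, and ANKRD1, AMOTL2, MYOF, a membrane-repair protein (-0.43 ± 0.057, adjusted p = 0.0034), and DOCK5 (-0.33 ± 0.078, adjusted p = 0.033) were the genes lower. At 24 h, 1 of 22 was higher (TGFB2, 0.41 ± 0.099, limma adjusted p = 0.049), near the 2.35% of all features, and 6 were lower, against 3.97%. The 6 were the 3 members above, the extracellular protein CCDC80 (-0.54 ± 0.076, adjusted p = 0.0061), MYOF (-0.36 ± 0.057, adjusted p = 0.009) and CRIM1 (-0.22 ± 0.049, adjusted p = 0.036). MYOF, DOCK5, CRIM1 and TGFB2 at 24 h were named to complete these counts, after their values were seen. The regulators FRMD6 (0.38 ± 0.081 at both times, limma adjusted p = 0.022 and 0.031), MAP4K4 (-0.41 and -0.26, adjusted p = 0.0036 and 0.03) and AJUBA (-0.30 at both, adjusted p = 0.016 and 0.024) differed at both times. MERTK was lower at 24 h (-0.53 ± 0.10, adjusted p = 0.021).

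**Figure D4:**
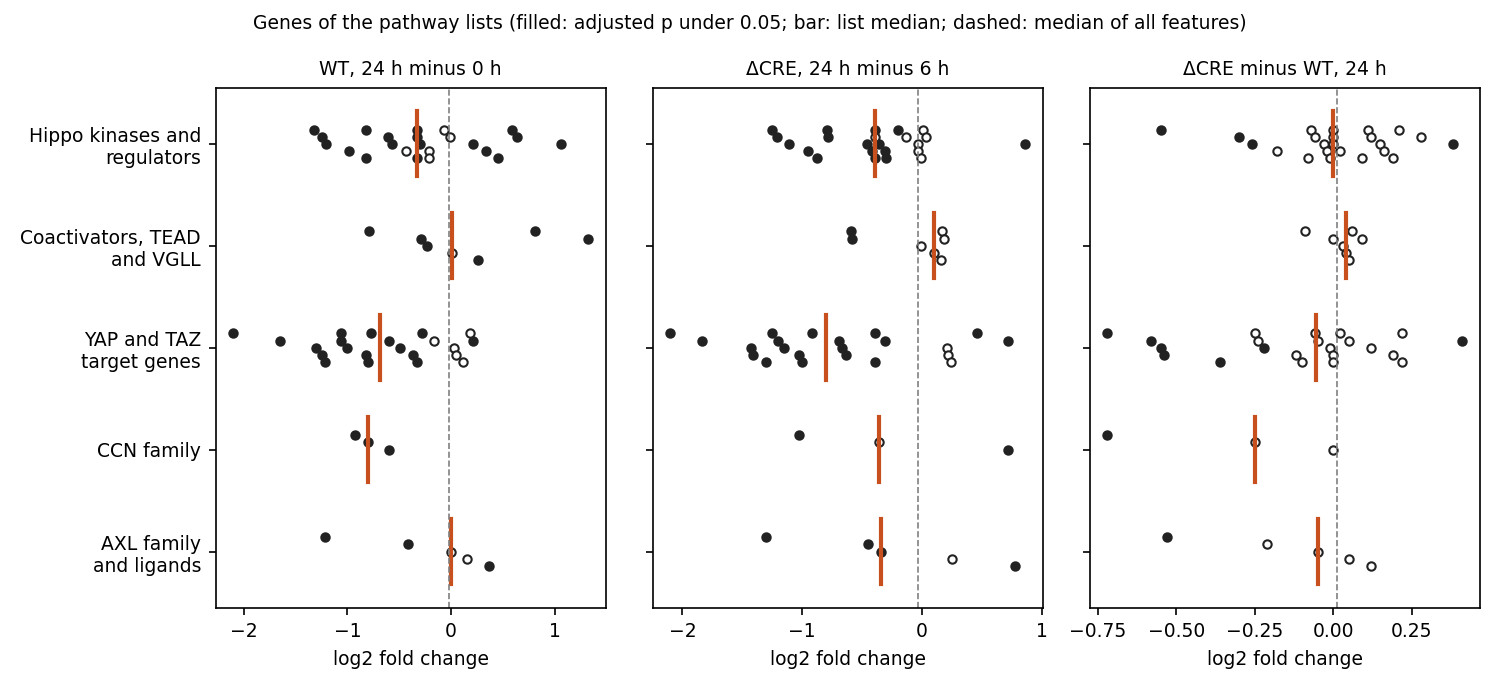
log2 fold changes (x axis) of the tested genes of each pathway list in 3 comparisons, filled where the limma adjusted p is under 0.05, with a bar at each list's median and a dashed line at the median of all features. The signature of YAP and TAZ targets has its median at -0.68 at 24 h in WT cells, -0.80 from 6 to 24 h in ΔCRE cells and -0.06 between the lines at 24 h.

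The features closest to the 5 target genes across the 11 libraries were found by the root-mean-square difference of log2(FPKM + 1), each centred on its own mean. This is a description over libraries that share groups, with no test. CYR61 was nearest to FOSL2, an AP-1 subunit (0.153), CCDC80 (0.156) and LOXL2, a lysyl oxidase (0.182), where CYR61 itself varied by 0.522 around its mean. CTGF was nearest to PLLP (0.076), OSR1 (0.11) and SHROOM2 (0.13), all at a mean under 2 FPKM, where the added 1 damps changes. ANKRD1 was nearest to the kinase PLK2 (0.125), then to PDLIM2 (0.169) and thrombospondin 1, THBS1 (0.227). AMOTL2 was nearest to TGFBI, an extracellular matrix protein induced by TGF-β (0.086), then to THBS1 (0.15) and EFEMP1 (0.155). AXL was nearest to RASSF1 (0.119), CRIM1 (0.12) and ZNF326 (0.132). CYR61 and CTGF, which belong to 1 family, differed from each other by 0.652 on this measure.

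In hg19, CYR61 lies at chr1:86046444-86049648, CTGF at chr6:132269317-132272518, ANKRD1 at chr10:92671857-92681032 and AMOTL2 at chr3:134074190-134093406 as the deposited features give them. YAP1 lies at chr11:101981192-102104154, TEAD1 at chr11:12695969-12966284, WWTR1 at chr3:149235022-149421060, LATS2 at chr13:21547176-21635722 and AXL at chr19:41725108-41767671. Exons of CTGF, YAP1, WWTR1 and AXL share bases with a noncoding gene on the opposite strand (LINC01013, ENSG00000254422, WWTR1-AS1 and ENSG00000269652), and those of AMOTL2 share bases with the pseudogene RPL39P5 on the same strand. The libraries were stranded, but the use of strand in counting is not given in the sources used here, so reads of these pairs cannot be told apart.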

How the data were processed

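Stranded mRNA libraries of WT and ΔCRE MDA-MB-231 cells were grouped by genotype and hours (0, 6 or 24), 2 replicates each, as labelled. The library titles give genotype and hours and do not name the stimulus. The authors mapped the reads to hg19 with TopHat and deposited FPKM values estimated by Cufflinks, 1 column per library for 24331 features. Whether FPKM was scaled between libraries is not given in the sources used here, and FPKM keeps no depth, so no counting interval was computed. The column names of ΔCRE 0 h and 6 h replicate 2 carry a digit where the others have a letter, and were matched to the only label left.

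log2(FPKM + 1) of the 11256 features with a mean of at least 1 FPKM was fitted with limma 3.58.1 (R 4.3.3) in 1 model of 6 groups over 11 libraries, without ΔCRE 0 h replicate 1, with a trend in the moderated variance. Comparisons within a line share libraries with each other. A feature was called at a Benjamini-Hochberg adjusted p under 0.05. The model was tested on simulated data. Named genes were the 9 members, up to 4 called genes of largest change per list and comparison, and the 3 features nearest to each of 5 target genes. The members and lists were chosen with earlier results of these data known. The alternatives were a pseudocount of 0.1, a minimum mean of 5 FPKM, no filter, TPM, quantile normalization, a replicate block, separate fits, all 12 libraries, and leaving out each library.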

Additional observations from a re-analysis of the deposited data

Results flagged for a closer look

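One library held a signal outside the comparisons. ΔCRE 0 h replicate 1 gave a summed level of 11800 FPKM over 10 gut epithelium markers, against 2.19 to 3.55 FPKM in each of the other 11 libraries, where 5 to 8 of the 10 were at 0. REG1A (4720 FPKM), GPX2 (1960), LCN2 (1530), PHGR1 (1480) and EPCAM (1140) led the list. VIM, at 1200 FPKM, was below the 1540 to 2540 FPKM of the other libraries. The 9 pathway genes were at 14.6% (TEAD1) to 61.9% (CYR61) of their level in ΔCRE 0 h replicate 2. The part of these transcripts in those low values was not tested.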

How the results depend on the processing

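Of the members' log2 fold changes under all alternatives, 1126 kept their side of the threshold, 50 lost the call, 21 gained it and no called one reversed. Among the 1126, 24 uncalled values changed sign. With all 12 libraries the members called were 1 (CTGF) at 6 h and 2 (CYR61 and ANKRD1) at 24 h against 0 h in WT cells, 1 (ANKRD1) and 2 (CYR61 and ANKRD1) at 24 h against 6 h in WT and ΔCRE cells, and 0 and 0 between the lines at 6 and 24 h. All features called were then 857, 1221, 582, 845, 20 and 17 in that order, and 0 for the difference of the changes. For that difference 1 member (CYR61) was called with a pseudocount of 0.1, a minimum mean of 5 FPKM, TPM or the replicate block, and 11 features were called after quantile normalization. Separate fits called 717 features between the lines at 6 h and 324 at 24 h. At 24 h against 0 h in WT cells, 8 members were called with no filter, TPM or separate fits, instead of 9.

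Leaving out 1 library at a time gave 4 to 6 members called at 6 h against 0 h in WT cells, 7 to 9 at 24 h against 0 h, 7 at 24 h against 6 h in either line, 1 to 2 between the lines at 6 h, 3 at 24 h and 0 to 1 for the difference of the changes. All features called ranged from 321 (without WT 6 h replicate 1) to 1097 between the lines at 6 h, from 165 (without WT 24 h replicate 1) to 717 at 24 h, and from 3 (without ΔCRE 24 h replicate 1) to 21 for the difference of the changes. Where 1 library of a group was left, it was assumed to vary like the other groups.

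Replicates of the same number did not deviate together in every pair of groups compared (r = -0.0267 to 0.111), so the numbers were not taken to pair the libraries. The highest r came from the 0 h pair, which holds ΔCRE 0 h replicate 1. These r cover all features, and single genes can differ: YAP1 and TEAD1 were higher in replicate 2 than in replicate 1 in every group. Of the members' log2 fold changes, 4 gained the call and 0 lost it with a replicate block. With the replicate block, 1805 features were called between the lines at 6 h and 1407 at 24 h, and CYR61 passed at 6 h (log2 difference -0.17, limma adjusted p = 0.037). The cause of these differences between settings was not tested. FPKM keeps no fragment counts, so the error behind low values such as those of LATS2 is unknown.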

Other observations

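The ratio of paralogs within a library was computed after the values were seen and is given with no test. WWTR1 stood at 1.2 and 1.11 times YAP1 (FPKM over FPKM) in WT cells at 0 h, 1.55 and 1.37 times at 6 h, and 1.73 and 1.71 times at 24 h. In ΔCRE cells the ratio was 1.18 in 0 h replicate 2, 1.64 and 1.45 at 6 h, and 1.7 and 1.64 at 24 h. Every stimulated library thus lay above the 3 unstimulated libraries of the fit, and ΔCRE 0 h replicate 1 lay below all at 0.851.

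CYR61 stood at 4.49 and 4.12 times CTGF in WT cells at 0 h, 8.14 and 8.14 times at 6 h, and 3.88 and 3.65 times at 24 h. In ΔCRE cells it was 4.25 in 0 h replicate 2, 8.16 and 7.25 at 6 h, and 2.34 and 2.2 at 24 h. The ratio was highest at 6 h in both lines, and at 24 h it was lower in each ΔCRE library than in either WT library. ΔCRE 0 h replicate 1, which stood apart in the levels of each gene, gave 4.46, within the range of the WT libraries at 0 h.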
